A study of Mus musculus with 12 samples.

Results

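CC chemokines are small secreted proteins that attract leukocytes through G protein–coupled receptors, and 10 of their genes (*Ccl2*, *Ccl3*, *Ccl4*, *Ccl5*, *Ccl6*, *Ccl7*, *Ccl9*, *Ccl12*, *Ccl17* and *Ccl22*) were described here among the 18193 genes read in peritoneal macrophages (PMs). The members were given by name, and a gene with several probe sets was read from the brightest of them on average. PMs were lavaged from the peritoneal cavity of mice (C57BL/6 mice of both sexes, per the study's methods) and enriched by adhesion. They were transfected with antagomir-21, an antisense oligonucleotide against miR-21, with a scramble oligonucleotide, or treated with lipofectamine, the transfection reagent, and then received exosomes of sensory neurons carrying miR-21 or a GFP reporter. RNA was read on 12 Affymetrix mouse expression arrays, 2 in each of the 6 groups. The groups were antagomir-21 with miR-21 exosomes, antagomir-21 with GFP exosomes, scramble with miR-21 exosomes, scramble with GFP exosomes, lipofectamine with miR-21 exosomes and lipofectamine with GFP exosomes. No group was left without exosomes, so each contrast is between exosome-treated PMs.

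Macrophages both make and answer CC chemokines. CCL2, CCL7 and CCL12 are ligands of CCR2, the receptor that calls classical monocytes out of blood, and in sensory ganglia after nerve injury this axis is known for bringing monocytes to the neurons. CCL3, CCL4 and CCL5 are inflammatory chemokines that are induced by NF-κB in activated macrophages. CCL6 and CCL9 are CCR1 ligands of rodents that resting myeloid cells make without a stimulus. CCL17 and CCL22 are ligands of CCR4 on T cells and are best known from dendritic cells and from macrophages given interleukin-4.

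The agent of the experiment and the promoters of 3 members are shown as sequence, credited to RefSeq on mouse build GRCm38.p6. Mature mmu-miR-21a-5p (chr11:86584120-86584141, minus strand) is the miRNA that antagomir-21 binds and that the miR-21 exosomes carry, and its seed, bases 2 to 8, is in capitals.
mmu-miR-21a-5p: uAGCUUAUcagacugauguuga
Of the 10 members, 6 had a promoter window of 250 bases before to 50 bases after the gene start (*Ccl3*, *Ccl6*, *Ccl9*, *Ccl12*, *Ccl17* and *Ccl22*). The windows of *Ccl6* (chr11:83593038-83593337, minus strand) and *Ccl9* (chr11:83578587-83578886, minus strand) are shown because these neighbouring genes were the brightest members and varied together over the arrays. Capitals mark the stretch the windows share.
Ccl6: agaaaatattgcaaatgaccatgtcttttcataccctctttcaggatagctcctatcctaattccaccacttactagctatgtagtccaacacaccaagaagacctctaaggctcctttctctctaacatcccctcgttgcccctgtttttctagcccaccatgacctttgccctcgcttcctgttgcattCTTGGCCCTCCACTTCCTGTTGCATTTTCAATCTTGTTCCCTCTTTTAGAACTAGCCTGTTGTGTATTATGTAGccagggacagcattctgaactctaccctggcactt
Ccl9: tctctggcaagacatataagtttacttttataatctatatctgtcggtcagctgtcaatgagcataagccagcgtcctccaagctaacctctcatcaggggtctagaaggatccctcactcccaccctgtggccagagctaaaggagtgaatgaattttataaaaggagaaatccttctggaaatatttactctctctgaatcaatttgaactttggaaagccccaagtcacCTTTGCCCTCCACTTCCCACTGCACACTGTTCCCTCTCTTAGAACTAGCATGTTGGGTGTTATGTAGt
The *Ccl12* window (chr11:82101595-82101894, plus strand) is shown for the member with the lowest signals after antagomir-21 with miR-21 exosomes, and its capitals mark TATAAA.
Ccl12: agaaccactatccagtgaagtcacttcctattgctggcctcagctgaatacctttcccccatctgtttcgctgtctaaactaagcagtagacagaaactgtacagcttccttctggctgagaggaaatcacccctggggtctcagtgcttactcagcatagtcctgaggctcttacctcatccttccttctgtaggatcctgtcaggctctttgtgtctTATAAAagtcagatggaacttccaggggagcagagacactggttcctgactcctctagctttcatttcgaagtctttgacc

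The *Ccl6* and *Ccl9* windows aligned locally over 74 columns, of which 59 were identical (79.7%), 8 were mismatches and 7 were gaps. This stretch covers bases 192 to 265 of the *Ccl6* window and 233 to 299 of the *Ccl9* window, of which the first 250 bases are upstream, so it spans the annotated start of both genes. The longest alignment of any other pair of member windows ran over 21 columns. Motifs were searched on both strands. TATAAA, the TATA box, was found in the windows of *Ccl9* and *Ccl12* and in 13.6% of 32851 windows of all genes. In *Ccl12* it began 31 bases before the start, and in *Ccl9* it was found 3 times, with matches on opposite strands overlapping. GAGGAA, a core recognized by the myeloid factor PU.1, was found in *Ccl3*, *Ccl12* and *Ccl17* and in 28.3% of all windows. The AP-1 motif TGANTCA was found in *Ccl9* (7.81% of all windows), the STAT6 consensus in *Ccl17* (6.95%) and the NF-kappaB consensus in *Ccl9* (8.46%). A match describes letters only, and no binding was measured.

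Mean signals of 13 genes that mark peritoneal macrophages ran from 8.43 (*Icam2*) to 16.94 (*Lyz2*) over the 12 arrays, all above the median gene of 7.91. The log2 signal of *Csf1r*, whose product receives the CSF1 signal that macrophages need to survive, was 16.43 ± 0.67, and that of *Adgre1*, which encodes F4/80, was 12.87 ± 0.64 (SD, n = 12 arrays). Genes that mark other cells of the lavage were mixed in level. Mean signals over 12 arrays ran from 5.96 (*Pax5*) to 12.41 (*Ms4a1*) for 5 B cell genes, from 5.52 (*Cd3d*) to 8.18 (*Klrd1*) for 9 T and NK cell genes and from 4.86 (*Flt3*) to 10.54 (*Fscn1*) for 9 dendritic cell genes, so the presence of these cells is not settled by their lists. In such bulk samples fewer cells of a type and less RNA per cell cannot be told apart. The arrays differed in how widely their signals were spread, with an SD over probe sets of 2.04 to 2.48, and both antagomir-21 arrays with GFP exosomes lay at the upper end (2.47 and 2.48).

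The 10 members covered nearly the whole scale of the array. By mean log2 signal over the 12 arrays, *Ccl6* (16.15 ± 0.79) and *Ccl9* (13.41 ± 0.85) stood at the 99.9th and 98.7th percentile of all genes, *Ccl3* (10.64 ± 0.80) and *Ccl2* (10.27 ± 0.67) at the 89.8th and 86.8th, and *Ccl4* (9.11 ± 0.64) at the 72.7th (SD, n = 12). *Ccl7* (8.15 ± 1.59), *Ccl5* (7.94 ± 1.27) and *Ccl12* (7.81 ± 1.97) lay near the median gene of 7.91, *Ccl17* (6.98 ± 1.95) at the 28.5th percentile and *Ccl22* (5.76 ± 1.97) at the 5.77th. These are brightnesses of different probe sets and do not rank the transcripts by abundance. *Ccl2*, *Ccl3*, *Ccl6* and *Ccl9* read above the array's median gene on 12 of 12 arrays and *Ccl4* on 11, whereas *Ccl12* did so on 5, *Ccl5* and *Ccl7* on 4, *Ccl17* on 3 and *Ccl22* on 1. *Ccl3*, *Ccl6* and *Ccl9* were in the brightest of 4 equal classes of genes on each of the 12 arrays, and *Ccl2* was on 9.

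**Figure D1:**
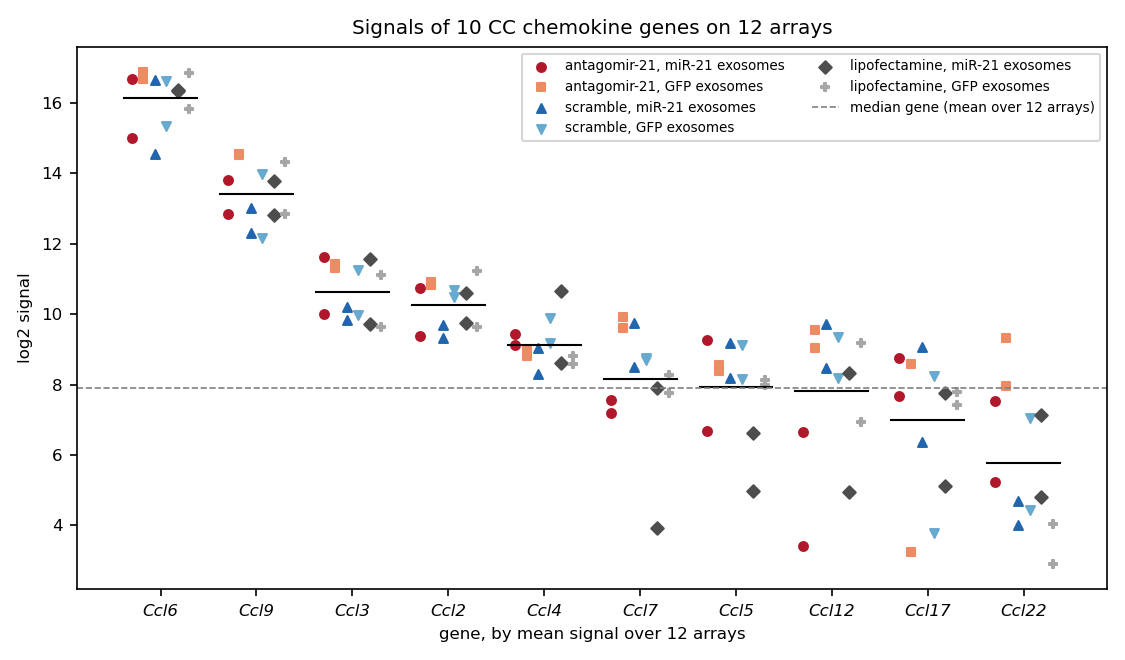
Log2 signal (y axis) of the 10 CC chemokine genes, ordered by mean signal (x axis), on each of the 12 arrays. Symbols and colors give the 6 groups, black bars the mean over 12 arrays and the dashed line the median gene at 7.91; *Ccl6*, *Ccl9*, *Ccl3* and *Ccl2* lie above that line on every array, and the dim members scatter across several log2 units.

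Spread followed brightness, as it did across all genes. The SD over arrays was 0.64 to 0.85 for the 5 bright members and 1.27 to 1.97 for the 5 dim ones. With all genes split by mean signal into 4 equal classes, the median SD was 0.665 in the brightest class, which held *Ccl2*, *Ccl3*, *Ccl6* and *Ccl9*, 1.29 in the next (*Ccl4*, *Ccl5*, *Ccl7*), 1.68 in the next (*Ccl12*, *Ccl17*) and 1.83 in the dimmest (*Ccl22*). *Ccl4*, with an SD of 0.64, varied less than most genes of its class, and *Ccl3*, *Ccl6* and *Ccl9*, at 0.80, 0.79 and 0.85, varied more than most of theirs. The share of a member's variation that lay between the 6 groups was 75% for *Ccl22*, 68.1% for *Ccl7*, 67.6% for *Ccl5*, 65.0% for *Ccl12*, 50.6% for *Ccl9*, 45.1% for *Ccl2*, 40.1% for *Ccl4*, 28.9% for *Ccl3*, 26.2% for *Ccl6* and 23.3% for *Ccl17*, against a median of 41.1% over all genes.

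**Figure D2:**
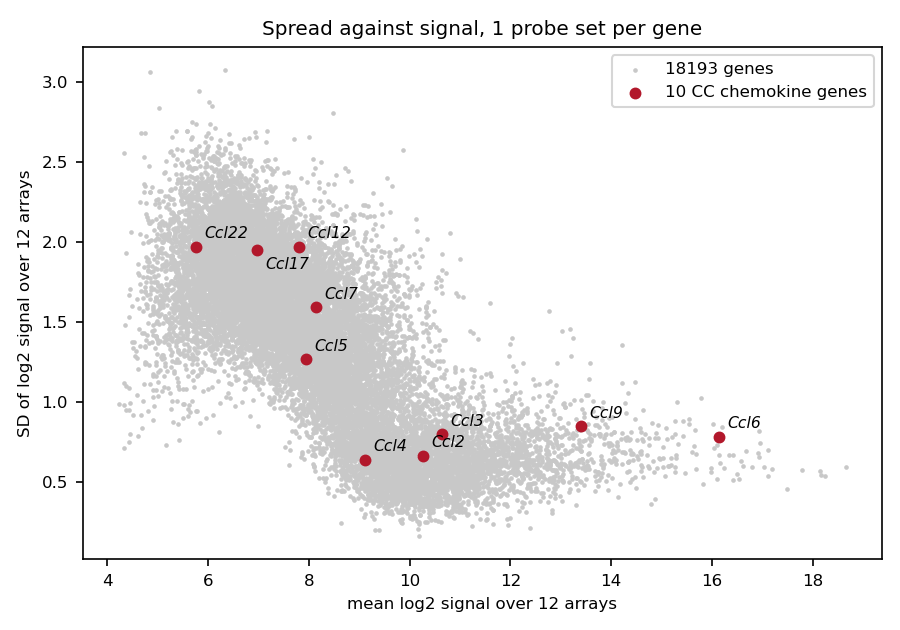
SD of the log2 signal over 12 arrays (y axis) against its mean (x axis) for all 18193 genes (gray) and the 10 CC chemokine genes (red). Dim genes scatter more than bright ones, and the members lie within the cloud of genes of like signal.

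None of the 10 members differed among the 6 groups after adjustment over all genes (limma's moderated F test with Benjamini-Hochberg adjustment), and no gene of the 18193 did. At an unadjusted p under 0.05, 1 member was called (*Ccl22*, adjusted p = 0.769), beside 5.96% of all genes, followed in the order of the test by *Ccl12*, *Ccl7* and *Ccl5*. The labels do not say that the 2 arrays of a group came from separate cultures, so all p-values here measure the spread between these arrays.

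*Ccl6* encodes a chemokine that binds CCR1 in mice and was the brightest member. In antagomir-21–transfected PMs it read 16.68 and 15.01 with miR-21 exosomes and 16.89 and 16.67 with GFP exosomes. Scramble-transfected PMs gave 14.54 and 16.66 with miR-21 exosomes and 15.34 and 16.62 with GFP exosomes. With lipofectamine it was 16.38 and 16.34, and 15.81 and 16.84. The lowest signals came from single arrays of 3 groups, and the higher array of each group lay between 16.38 and 16.89. A second *Ccl6* probe set, whose design allows it to match several transcripts, averaged 14.61 and followed the first over the arrays (r = 0.86).

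*Ccl9*, which lies next to *Ccl6* on chromosome 11 and also encodes a CCR1 ligand, read 13.82 and 12.84 after antagomir-21 with miR-21 exosomes and 14.56 and 14.52 with GFP exosomes. After scramble it read 12.30 and 13.01 with miR-21 exosomes and 12.17 and 13.97 with GFP exosomes. With lipofectamine the signals were 13.77 and 12.82, and 12.84 and 14.33. The antagomir-21 arrays with GFP exosomes were the highest pair, while the other groups overlapped each other. A second *Ccl9* probe set was far dimmer (8.30 ± 1.36, SD, n = 12) and hardly followed the first (r = 0.26), so what is said of *Ccl9* holds for the bright probe set.

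*Ccl3*, which encodes MIP-1α, a ligand of CCR1, read 11.63 and 9.997 after antagomir-21 with miR-21 exosomes and 11.30 and 11.43 with GFP exosomes. After scramble the signals were 10.20 and 9.83, and 9.99 and 11.27. With lipofectamine they were 11.57 and 9.73, and 9.64 and 11.10. The arrays formed a high set between 11.10 and 11.63 and a low set between 9.64 and 10.20, and 4 of the 6 groups had an array in each. *Ccl4*, its neighbour on the chromosome, encodes MIP-1β, which attracts monocytes and T cells. It read 9.11 and 9.43, and 8.82 and 8.95, after antagomir-21 with miR-21 and GFP exosomes, 9.03 and 8.30, and 9.89 and 9.18, after scramble, and 10.66 and 8.61, and 8.58 and 8.81, with lipofectamine. Apart from 10.66 on a single array its signals spanned 8.30 to 9.89. Although *Ccl3* and *Ccl4* are often induced together, their signals were only loosely related here (r = 0.36 over 12 arrays, permutation p = 0.273, adjusted over 45 pairs 0.795).

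*Ccl2* encodes MCP-1, the main CCR2 ligand for monocytes. After antagomir-21 it read 10.74 and 9.38 with miR-21 exosomes and 10.81 and 10.91 with GFP exosomes. After scramble it read 9.69 and 9.33 with miR-21 exosomes and 10.48 and 10.68 with GFP exosomes. With lipofectamine the signals were 10.61 and 9.76, and 9.63 and 11.23. After antagomir-21 and after scramble both miR-21 arrays were below both GFP arrays, narrowly so after antagomir-21, and the lipofectamine arrays overlapped. Its log2 fold change for miR-21 against GFP exosomes after scramble was −1.07 ± 0.92 (SE; limma, adjusted p = 0.999), and a lower group without overlap was found for 12.2% of all genes in that comparison. After antagomir-21 it was −0.80 ± 0.92 (SE; limma), where 15% of all genes were lower without overlap.

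*Ccl7* (MCP-3) and *Ccl12* (MCP-5), which lie near *Ccl2* and also bind CCR2 in mice, were dimmer and more variable. *Ccl7* read 7.19 and 7.56 after antagomir-21 with miR-21 exosomes and 9.93 and 9.60 with GFP exosomes, against 9.74 and 8.49, and 8.70 and 8.75, after scramble. With lipofectamine it was 7.89 and 3.92, and 8.28 and 7.77. The highest arrays were those of antagomir-21 with GFP exosomes together with 1 scramble array with miR-21 exosomes, and the value of 3.92 stood far below the rest.

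*Ccl12* read 6.65 and 3.43 after antagomir-21 with miR-21 exosomes and 9.54 and 9.04 with GFP exosomes. After scramble it read 8.48 and 9.73, and 8.20 and 9.34. With lipofectamine it read 4.94 and 8.31, and 6.92 and 9.17. The antagomir-21 arrays with miR-21 exosomes were below all antagomir-21 and scramble arrays of the other groups, and 1 lipofectamine array with miR-21 exosomes lay between them (4.94).

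*Ccl5* encodes RANTES, a ligand of CCR1 and CCR3 that T and NK cells make as well as macrophages. After antagomir-21 it read 6.67 and 9.28 with miR-21 exosomes and 8.55 and 8.39 with GFP exosomes. After scramble it read 8.19 and 9.19, and 9.13 and 8.16. With lipofectamine it read 6.61 and 4.97, and 7.98 and 8.13. Both lipofectamine arrays with miR-21 exosomes were lower than every other array, and the antagomir-21 pair with miR-21 exosomes spanned most of the range on its own.

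*Ccl17* (TARC) read 8.76 and 7.68 after antagomir-21 with miR-21 exosomes and 3.23 and 8.57 with GFP exosomes. After scramble it read 9.07 and 6.37, and 8.25 and 3.78. With lipofectamine it read 5.12 and 7.75, and 7.42 and 7.78. The 2 arrays lay farther apart than any 2 group means in both scramble groups, in antagomir-21 with GFP exosomes and in lipofectamine with miR-21 exosomes. The gap was widest in the GFP groups given antagomir-21 (5.34) or scramble (4.47). The within-group SD of 2.31 was above the SD of the group means, 0.99.

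*Ccl22* (MDC), which lies on chromosome 8 with only *Cx3cl1* between it and *Ccl17*, was the dimmest member. After antagomir-21 it read 7.54 and 5.24 with miR-21 exosomes and 7.97 and 9.33 with GFP exosomes. After scramble it read 4.70 and 3.997 with miR-21 exosomes and 4.43 and 7.05 with GFP exosomes. With lipofectamine it read 4.79 and 7.14, and 4.04 and 2.89. The antagomir-21 arrays with GFP exosomes were the highest of all 12, and the lipofectamine arrays with GFP exosomes were among the lowest.

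**Figure D3:**
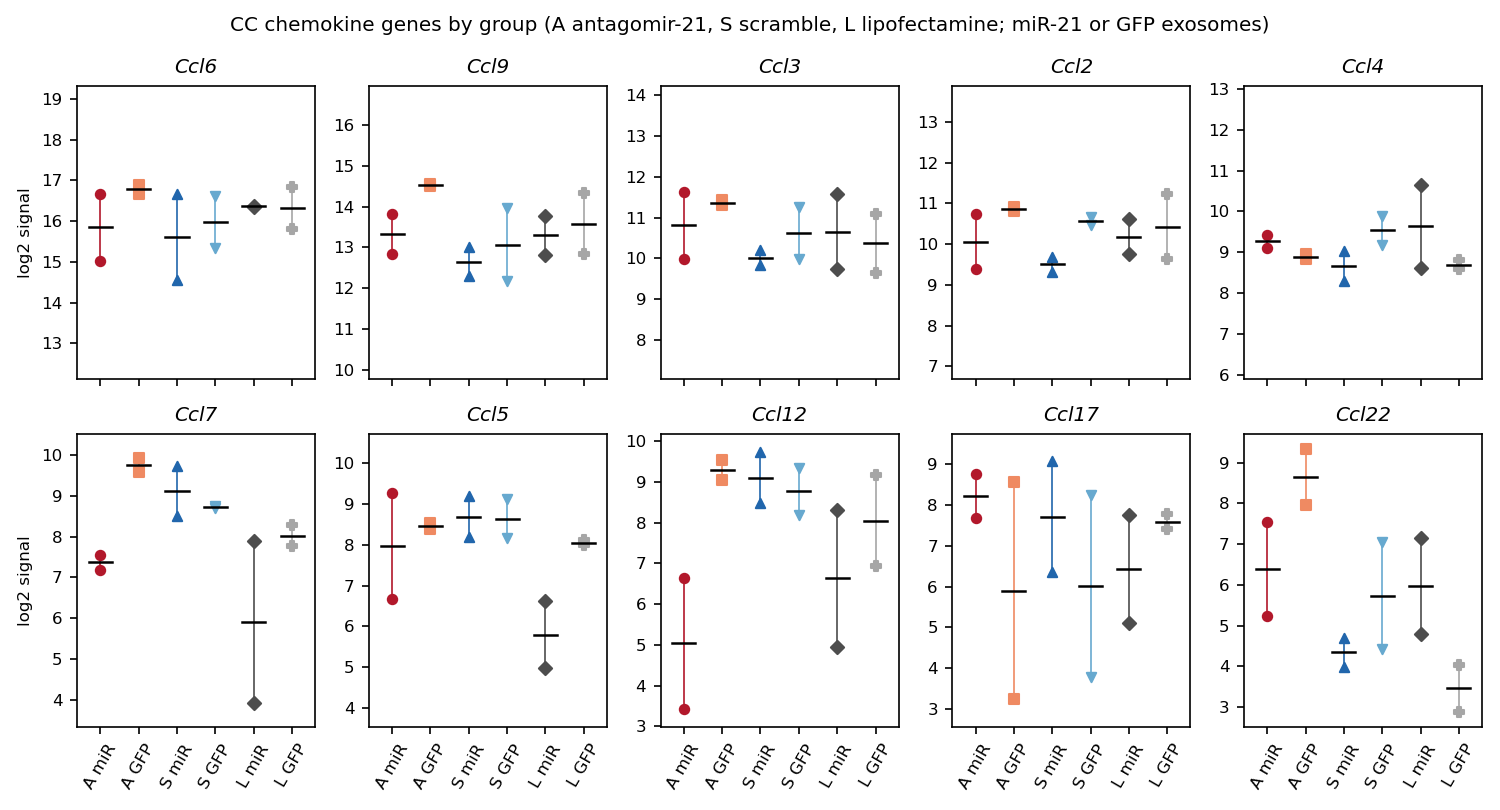
Log2 signal (y axis) of each CC chemokine gene by group (x axis; A antagomir-21, S scramble, L lipofectamine, each with miR-21 or GFP exosomes). Points are the 2 arrays of a group joined by a line, black bars are group means, and all panels cover the same span of log2 units. Group means of the 5 bright members lie closer together (SD of group means 0.42 to 0.63) than those of the 5 dim ones (0.99 to 1.79). The arrays of a group lie far apart for *Ccl17*, and *Ccl9* and *Ccl22* are highest after antagomir-21 with GFP exosomes.

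Antagomir-21 against scramble over both exosomes asked what lowering miR-21 does in PMs. After adjustment 0 of the 10 members passed the limma test, as did 0 of 18193 genes, and at an unadjusted p under 0.05 there was 1 member beside 5.16% of all genes. That member was *Ccl22*, which averaged 7.52 ± 1.70 in antagomir-21–transfected PMs and 5.04 ± 1.37 in scramble-transfected PMs (SD, n = 4 each). Its log2 fold change was 2.47 ± 0.90 (SE; 95% interval 0.47 to 4.48; limma, adjusted p = 0.823), the ranges overlapped, and leaving out any of 4 single arrays (1 of each antagomir-21 and scramble group) ended even the call before adjustment, with values of 1.82 to 2.30. *Ccl9* had a log2 fold change of 1.07 ± 0.70, *Ccl3* of 0.77 ± 0.73, *Ccl6* of 0.52 ± 0.73, *Ccl2* of 0.42 ± 0.65 and *Ccl17* of 0.19 ± 1.36 (SE). *Ccl12* was at −1.77 ± 1.01, *Ccl5* at −0.45 ± 0.76, *Ccl7* at −0.35 ± 0.85 and *Ccl4* at −0.02 ± 0.65 (SE). The 10 members had a median of 0.31, with 6 above 0, against a median of −0.00 over all genes, of which 50.2% were below 0.

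With GFP exosomes the antagomir-21 arrays of *Ccl22* (7.97 and 9.33) were above both scramble arrays (4.43 and 7.05). There the log2 fold change was 2.91 ± 1.28 (SE; 95% interval 0.07 to 5.74; limma, adjusted p = 0.914), and *Ccl22* was the 1 member called before adjustment, with 5.38% of all genes at an unadjusted p under 0.05 and 19.1% higher without overlap. Leaving out each array in turn gave 1.60 to 4.22. With miR-21 exosomes the antagomir-21 arrays (7.54 and 5.24) were also above both scramble arrays (4.70 and 3.997), with a log2 fold change of 2.04 ± 1.28, and the difference between the exosomes was −0.87 ± 1.80 (SE; limma, adjusted p = 0.9995). Dendritic cells are a known source of CCL22. The mean log2 signal of 9 of their marker genes was 6.43 to 7.75 in the 4 antagomir-21 arrays and 7.52 to 8.63 in the 4 scramble arrays. Of the 9, 7 had a log2 fold change below 0, beside 50.2% of all genes. Of these genes, *Fscn1* was above the array's median gene on 12 of 12 arrays, *Zbtb46* and *Dpp4* on 10, *Xcr1* on 7, *Kmo* and *Itgae* on 4, *Flt3* and *Ccr7* on 1 and *Cd209a* on 0. The mean of 13 peritoneal macrophage markers was 11.25 to 12.48 in antagomir-21 arrays and 11.09 to 12.33 in scramble arrays, and 10 of the 13 had a log2 fold change above 0 (median 0.49). With GFP exosomes alone their mean was 12.18 and 12.39 in antagomir-21 arrays and 11.09 and 11.97 in scramble arrays. Of the 13, 11 were above 0 (median 0.86), where 48.8% of all genes were below 0, and 1 was called before adjustment, beside 5.38% of all genes. The SD over probe sets was 2.47 and 2.48 on these antagomir-21 arrays and 2.24 and 2.37 on the scramble arrays. Signals of the brightest class of genes tended to rise with that spread (median r = 0.47). The part of either cell type, or of array spread, in the *Ccl22* values was not tested.

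With miR-21 exosomes, antagomir-21 and scramble arrays were separated for *Ccl12* (6.65 and 3.43 against 8.48 and 9.73). The log2 fold change was −4.06 ± 1.43 (SE; 95% interval −7.24 to −0.89; limma, adjusted p = 0.789), where 5.3% of all genes had an unadjusted p under 0.05 and 14.9% were lower without overlap. *Ccl12* was the 1 member called before adjustment in this comparison, and without the dimmer antagomir-21 array the value was −2.45 and no longer called. With GFP exosomes the antagomir-21 and scramble arrays overlapped (9.54 and 9.04, against 8.20 and 9.34). The difference of the antagomir-21 effect between the exosomes was −4.58 ± 2.02 (SE; limma, adjusted p = 0.923), again 1 member beside 5.36% of all genes, and lay between −6.19 and −2.97 with single arrays left out.

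miR-21 against GFP exosomes over all transfections asked what neuronal miR-21 adds. After adjustment 0 of 10 members and 0 of 18193 genes passed, and at an unadjusted p under 0.05 there were 0 members beside 5.45% of all genes (limma). *Ccl12* averaged 6.92 ± 2.38 with miR-21 exosomes and 8.70 ± 0.99 with GFP exosomes (SD, n = 6 each), a log2 fold change of −1.78 ± 0.83 (SE; 95% interval −3.61 to 0.06). *Ccl7* averaged 7.46 ± 1.95 with miR-21 exosomes and 8.84 ± 0.81 with GFP exosomes (SD, n = 6 each), a log2 fold change of −1.37 ± 0.70 (SE; 95% interval −2.92 to 0.18). Without the brighter of the lipofectamine arrays with miR-21 exosomes the *Ccl7* value was −2.03, called before adjustment, and without the dimmer it was −0.71. *Ccl12* was called before adjustment after median centring (−1.98) and without any of 3 arrays. These were the first lipofectamine array with GFP exosomes (−2.15), the second lipofectamine array with miR-21 exosomes (−2.34) and the first antagomir-21 array with miR-21 exosomes (−2.31). It was also called with the mean of a gene's probe sets, but *Ccl12* has 1 probe set, so its value (−1.78) was the same. Only the spread borrowed from other genes in the fit differed there. *Ccl5* was called without the second antagomir-21 array with miR-21 exosomes (−1.34). The log2 fold changes of the others were −0.91 ± 0.62 for *Ccl5*, −0.70 ± 0.53 for *Ccl2*, −0.64 ± 0.57 for *Ccl9*, −0.43 ± 0.60 for *Ccl6*, −0.38 ± 0.74 for *Ccl22*, −0.29 ± 0.60 for *Ccl3*, 0.15 ± 0.53 for *Ccl4* and 0.95 ± 1.11 for *Ccl17* (SE). In all 8 of 10 members were below 0, with a median of −0.53, against 51% of all genes and a median of −0.02. The SD over probe sets was 2.04 to 2.46 on the miR-21 arrays and 2.13 to 2.48 on the GFP arrays. Signals of *Ccl2*, *Ccl3*, *Ccl6* and *Ccl9*, all below 0 here, rose with that spread (r = 0.75 to 0.86 over 12 arrays). The part of array spread in these values was not tested.

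Within antagomir-21–transfected PMs the exosome contrast gave the same count, 8 members below 0 beside 52.7% of all genes, with a median of −0.87 against −0.08 over all genes. Each exosome contrast within a transfection uses arrays of the pooled contrast and is no further evidence for it. *Ccl12* was called before adjustment (6.65 and 3.43 with miR-21 exosomes, 9.54 and 9.04 with GFP exosomes), with a log2 fold change of −4.25 ± 1.43 (SE; 95% interval −7.43 to −1.08; limma, adjusted p = 0.599), beside 5.68% of all genes. The groups did not overlap, which held in this direction for 15% of all genes, and without the dimmer miR-21 array the value was −2.64 and no longer called. After scramble 6 members were below 0, beside 48.6% of all genes (median −0.40), and with lipofectamine 6, beside 50.7% (median −0.26). In neither was a member called before adjustment, beside 5.7% and 3.84% of all genes (limma).

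Scramble-transfected PMs with miR-21 exosomes against antagomir-21–transfected PMs with GFP exosomes set miR-21 exosomes without the inhibitor against GFP exosomes with it. How much miR-21 the GFP exosomes carried is not given. The labels do not rank the 6 groups by miR-21, and its level was not measured here. *Ccl22* read 4.70 and 3.997 in scramble-transfected PMs with miR-21 exosomes, against 7.97 and 9.33 in antagomir-21–transfected PMs with GFP exosomes. Its log2 fold change was −4.30 ± 1.28 (SE; 95% interval −7.13 to −1.47; limma, adjusted p = 0.414), the lowest adjusted p of any member in the 10 comparisons. In this one 7.17% of all genes had an unadjusted p under 0.05 and 16.2% were lower without overlap. It lay between −4.98 and −3.62 when each array was left out in turn. The log2 fold changes of the 4 brightest members were below 0 as well, with both arrays of *Ccl2* (9.69 and 9.33, against 10.81 and 10.91), *Ccl3* (10.20 and 9.83, against 11.30 and 11.43), *Ccl9* (12.30 and 13.01, against 14.56 and 14.52) and *Ccl6* (14.54 and 16.66, against 16.89 and 16.67) below both of the other group. For *Ccl6* the nearest arrays were almost equal, and limma called none of these 4. The arrays themselves differed in spread, with an SD over probe sets of 2.04 and 2.29 in the scramble group and 2.47 and 2.48 in the antagomir-21 group. This comparison shares its arrays with the preceding ones, so its values are not further evidence for them.

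Oligonucleotide against lipofectamine alone (8 against 4 arrays) asked what transfection with any oligonucleotide does. After adjustment 0 of 10 members and 0 of 18193 genes passed the limma test, and 2 members were called before adjustment beside 4.05% of all genes. *Ccl7* averaged 8.74 ± 1.0003 with oligonucleotide and 6.96 ± 2.04 with lipofectamine alone (SD, n = 8 and n = 4), a log2 fold change of 1.78 ± 0.74 (SE; 95% interval 0.14 to 3.42; limma, adjusted p = 0.999). *Ccl5* averaged 8.44 ± 0.85 with oligonucleotide and 6.92 ± 1.47 with lipofectamine alone, a log2 fold change of 1.52 ± 0.66 (SE; 95% interval 0.06 to 2.98; limma, adjusted p = 0.999). The groups overlapped for both genes, and both differences drew on the same array of lipofectamine with miR-21 exosomes, the lowest for each (3.92 and 4.97). Without it the values were 0.79 for *Ccl7* and 1.11 for *Ccl5*, and neither was called. Over all 12 omissions *Ccl7* lay between 0.79 and 2.77 and *Ccl5* between 1.11 and 1.93. *Ccl22* was at 1.57 ± 0.78, *Ccl12* at 0.71 ± 0.88, *Ccl3* at 0.20 ± 0.63, *Ccl9* at −0.04 ± 0.60, *Ccl17* at −0.05 ± 1.18, *Ccl2* at −0.06 ± 0.56, *Ccl4* at −0.08 ± 0.56 and *Ccl6* at −0.29 ± 0.64 (SE). The members' median was 0.08 against −0.03 over all genes, with 5 members below 0 beside 51.7% of all genes. T and NK cells also make CCL5. Of 9 markers of these cells 4 had a log2 fold change above 0 and 5 below it in this comparison (median −0.05), and their mean signal was 6.03 to 7.23 in the oligonucleotide arrays and 5.63 to 7.23 in the lipofectamine arrays. Their part in the *Ccl5* values was not tested.

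**Figure D4:**
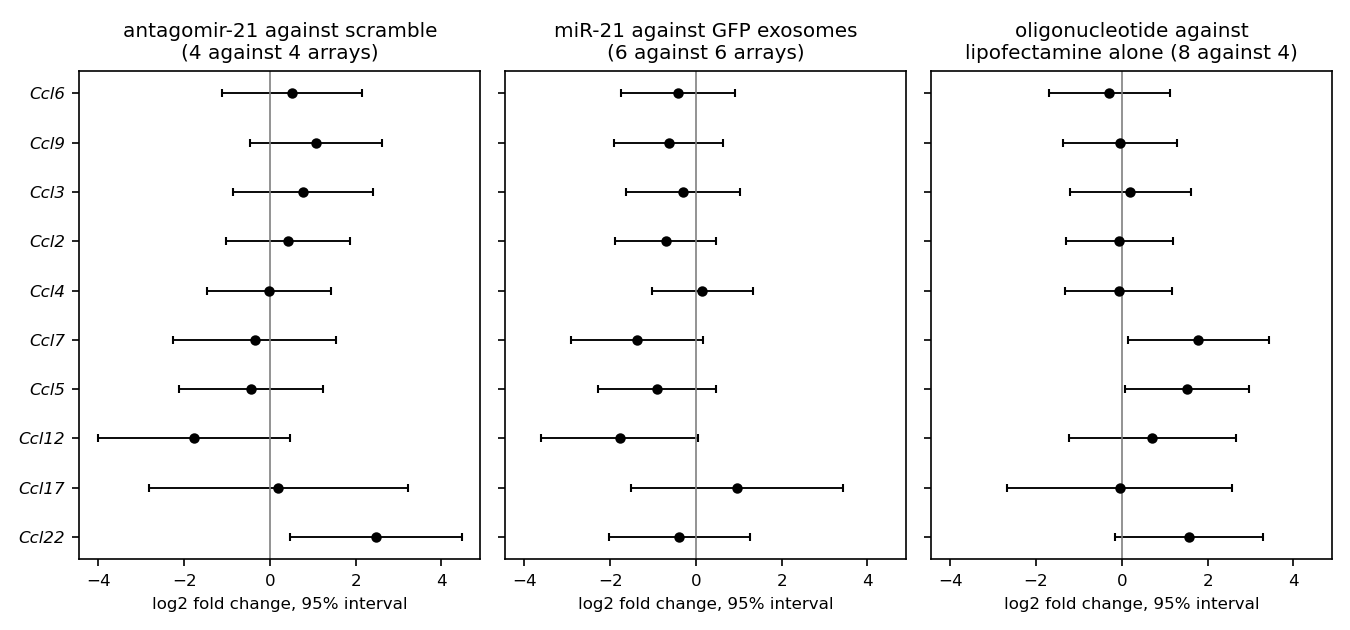
Log2 fold change (x axis) with its 95% interval from limma for each CC chemokine gene (y axis, by mean signal) in the 3 comparisons over pooled groups. Intervals are narrower for bright members than for dim ones (SE 0.65 to 0.73 against 0.76 to 1.36 on the left). Those of *Ccl22* on the left and of *Ccl7* and *Ccl5* on the right leave out 0 before adjustment.

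From array to array 3 pairs among *Ccl2*, *Ccl3*, *Ccl6* and *Ccl9* varied together. Over the 12 arrays Pearson's r was 0.84 for *Ccl2* and *Ccl3* (permutation p = 0.00308, adjusted over 45 pairs 0.0462; rho = 0.70), 0.84 for *Ccl3* and *Ccl9* (permutation p = 0.00223, adjusted 0.0462; rho = 0.66) and 0.81 for *Ccl6* and *Ccl9* (permutation p = 0.00081, adjusted 0.0364; rho = 0.87, adjusted 0.0171). These were the 3 of 45 pairs that passed by r, and 1 passed by rho. After quantile normalization 0 of the 45 passed by r, and leaving out each array in turn gave 0 to 3, with 0 in 8 of the 12 omissions. Leaving out the 2 arrays farthest from the median of the first gene gave 0.82, 0.86 and 0.83, and deviations from the group means gave 0.90, 0.86 and 0.79. *Ccl2* and *Ccl9* had r = 0.76 (permutation p = 0.00753, adjusted 0.0847). *Ccl5* and *Ccl7* had r = 0.75 (permutation p = 0.0119, adjusted 0.107), which was 0.28 without the 2 farthest arrays and so rested on those. *Ccl6* had r = 0.58 with *Ccl2* and 0.57 with *Ccl3*, *Ccl4* lay between −0.24 and 0.36 with these 4 genes, and neither these nor the other pairs passed. The median r over the 45 was 0.08.

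The signals of these 4 genes went with how widely each array's signals were spread, a measure added after the values were seen. Against the SD of signals on the array, r was 0.86 for *Ccl9* and 0.83 for *Ccl6* (permutation, adjusted over 10 members 0.0034 for each), 0.77 for *Ccl3* and 0.75 for *Ccl2* (permutation, adjusted 0.0159 for each), and leaving out the 2 farthest arrays gave 0.79, 0.75, 0.81 and 0.72. By rho the 4 were 0.87, 0.88, 0.69 and 0.76, with adjusted permutation p of 0.00245, 0.00245, 0.0426 and 0.02. *Ccl22* had r = 0.60 (permutation, adjusted 0.0803), and the other 5 members lay between −0.35 and 0.34. The SD of an array takes in the probe sets of these genes, and bright genes in general behaved this way. The permutation p-values do not compare the 4 with other bright genes. Over the 4548 genes of the brightest class the median r with array spread was 0.47, and 15.3% were at or above 0.75, whereas the medians of the other classes were, from the dimmest up, −0.15, −0.17 and −0.07. Once each array was scaled to a common SD the 4 members kept an r of 0.51 to 0.76 with the original spread, and no pair of members then passed. How far array spread makes up the shared pattern was not tested further.

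**Figure D5:**
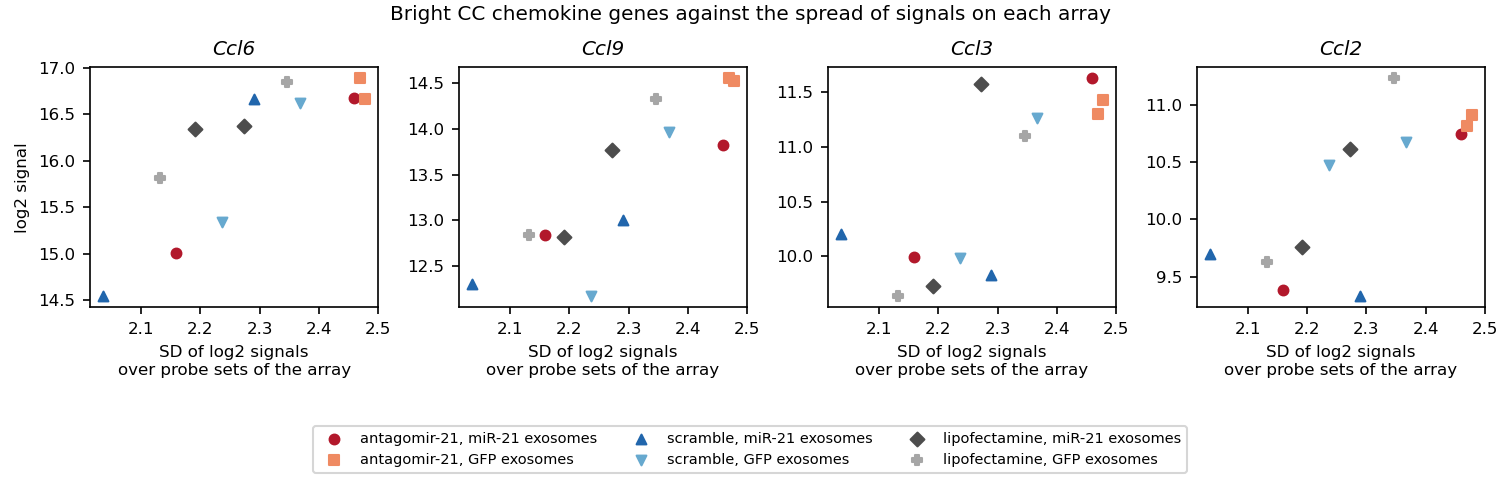
Log2 signal (y axis) of *Ccl6*, *Ccl9*, *Ccl3* and *Ccl2* against the SD of log2 signals over the probe sets of each array (x axis), 1 point per array, with symbols for the 6 groups. The arrays with the widest spread, 2.46 to 2.48, had high signals of all 4 genes (r = 0.75 to 0.86, n = 12).

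Among the 4547 other genes of the brightest class, *Ccl3* stood in place 29 by likeness to *Ccl2* and *Ccl9* in place 100 by likeness to *Ccl3*. *Ccl9* was in place 436 for *Ccl6*, whose median r with such genes was 0.46. Many other bright genes thus followed *Ccl6* more closely than *Ccl9* did. For the 3 members with the largest SD, the genes most alike among the 9096 above the median signal were *Rftn1* (r = 0.81), *Fam8a1* (0.77) and *Slc31a2* (0.77) for *Ccl22*, *Nenf* (0.94), *Tubb2b* (0.92) and *Poldip3* (0.90) for *Ccl12*, and *Gria3* (0.86), *Kcnj15* (0.83) and *Opcml* (0.83) for *Ccl17*, each over 12 arrays and as a description of likeness only.

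The receptors that these chemokines bind were read as well. *Ccr1*, the receptor of CCL3, CCL5, CCL6 and CCL9, was bright (11.63 ± 0.46) and above the median gene on 12 of 12 arrays, and *Ccr2*, the receptor of CCL2, CCL7 and CCL12, was at 9.15 ± 1.21 and above it on 11 (SD, n = 12). *Ccr4*, the receptor of CCL17 and CCL22, was at 5.57 ± 1.90 and above it on 1 array. *Ccr3*, which also binds CCL5, was at 7.43 ± 1.89, and *Ackr2*, a scavenger that takes up inflammatory CC chemokines without signaling, at 7.39 ± 1.52 (SD, n = 12). Of 14 receptor genes measured, 0 passed after adjustment in the 3 comparisons over pooled groups. *Ccr1l1*, a close relative of *Ccr1*, was dim (5.86 ± 1.43, SD, n = 12) and above the median gene on 0 of 12 arrays. Before adjustment *Ccr1l1* was called in antagomir-21 against scramble with a log2 fold change of 1.89 ± 0.78 and *Ccr4* with −2.10 ± 0.90 (SE, limma, adjusted over all genes 0.924 and 0.930), beside 5.16% of all genes. In that comparison the 14 had a median of 0.17, and *Ccr1* and *Ccr2* were at 0.29 ± 0.62 and −1.16 ± 0.89 (SE). For miR-21 against GFP exosomes 0 receptors were called before adjustment, beside 5.45% of all genes, with a median of 0.04.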

How the data were processed

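The authors deposited log2 signals for 45037 probe sets on each of 12 arrays. The study's methods describe RMA with quantile normalization, but the deposited arrays had medians between 7.92 and 8.58, which quantile normalization would make equal, and their trimmed means on the linear scale were 496 to 499, so the values were taken as scaled by 1 factor an array and used as deposited. No source used here names the program behind them. The labels and the methods name amplification kits of different suppliers. The methods state triplicates, and 2 arrays a group, named by the labels, were analyzed here. The labels alone name the lipofectamine groups, taken here as reagent alone.

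Of the probe sets, 34945 had 1 gene symbol in the platform annotation and 932 had several, while 9160 were not listed there; the probe sets of several symbols and those not listed were left out. Symbols were updated by gene ID for 34741. Each of 18193 genes was given by its probe set with the highest mean. Genes carry no coordinates from the arrays, for which no build is given; promoter and miRNA coordinates are those of RefSeq on GRCm38.p6. Whether probes of a gene also bind transcripts of a close relative was not tested.

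Means of the 6 groups were fitted for all genes by lmFit and eBayes (limma 3.58.1, R 4.3.3), with contrasts as described and Benjamini-Hochberg adjustment over all genes at 0.05. It and the correlations (100000 permutations, 2-sided; scipy 1.17.1) were tested on simulated data. Promoter windows were aligned with Biopython 1.88. All members were named with their values in the pooled comparisons; single pairs of groups were given where a member's unadjusted p was under 0.05. *Ccl2* after scramble and the bright members in the scramble and antagomir-21 contrast were added after their values were seen. Members and lists were chosen with earlier results of these data known. The alternatives were other scalings, the mean of a gene's probe sets, a filter on dim genes, an additive model, a signal trend in the prior, an unpaired t test on the compared arrays, a replicate block and each array left out. The study's methods name an unpaired t test for 2 groups in general, but not for the arrays. The precision is limited by the number of arrays.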

Additional observations from a re-analysis of the deposited data

Results flagged for a closer look

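*Ccl4* went opposite ways with the exosomes in antagomir-21– and scramble-transfected PMs: both miR-21 arrays (9.11 and 9.43) were above both GFP arrays (8.82 and 8.95) after antagomir-21, and both (9.03 and 8.30) were below both (9.89 and 9.18) after scramble. Of all genes, 15.9% were higher without overlap after antagomir-21 and 12.2% lower after scramble. The difference of the exosome contrasts, antagomir-21 minus scramble, was 1.26 ± 1.30 on the log2 scale (SE; limma, adjusted p = 0.9995), and the same 1.26 is the difference of the antagomir-21 contrasts, miR-21 minus GFP exosomes, for which 11.3% of all genes were higher without overlap with miR-21 exosomes and 16.7% lower with GFP exosomes.

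*Ccl7* went opposite ways with antagomir-21 under the 2 exosomes. With miR-21 exosomes the antagomir-21 arrays (7.19 and 7.56) were below the scramble arrays (9.74 and 8.49), and with GFP exosomes they (9.93 and 9.60) were above them (8.70 and 8.75). Of all genes, 14.9% were lower without overlap with miR-21 exosomes and 19.1% higher with GFP exosomes. The difference, miR-21 minus GFP exosomes, was −2.78 ± 1.71 (SE; limma, adjusted p = 0.9995).

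*Ccl22* went opposite ways with the exosomes after antagomir-21 and with lipofectamine: the miR-21 arrays (7.54 and 5.24) were below the GFP arrays (7.97 and 9.33) after antagomir-21, and (4.79 and 7.14) above them (4.04 and 2.89) with lipofectamine. Of all genes, 15% were lower without overlap after antagomir-21 and 19.6% higher with lipofectamine. The difference, antagomir-21 minus lipofectamine, was −4.76 ± 1.80 (SE; limma, adjusted p = 0.959).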

How the results depend on the processing

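No member passed after adjustment in any comparison or in the test among the 6 groups, under any alternative or with any array left out. The fit with the replicate number as a block also called 0 members in each; over 15 pairs of groups, deviations of same-numbered arrays correlated from −0.19 to 0.17, so the numbers were not taken as a pairing. Of the pairs of members that varied together, 3 passed as reported, 0 after quantile normalization, 0 after scaling to a common SD, and 0 to 3 when each array was left out. Directions turned where values were small. *Ccl4* in antagomir-21 against scramble (−0.02) was 0.13 after quantile normalization, 0.13 after median centring and 0.082 after SD scaling, and for miR-21 against GFP exosomes (0.15) it was −0.030, −0.053 and −0.020. For oligonucleotide against lipofectamine alone, *Ccl9* was 0.23 with the mean of its probe sets (−0.04 as reported), and *Ccl17* was 0.18 after quantile normalization (−0.05 as reported). Leaving out each array in turn also turned directions in antagomir-21 against scramble for *Ccl4* (−0.21 to 0.16), *Ccl5* (−1.10 to 0.21), *Ccl6* (−0.013 to 1.05) and *Ccl17* (−1.14 to 1.53), in miR-21 against GFP exosomes for *Ccl3* (−0.60 to 0.013), *Ccl4* (−0.19 to 0.49) and *Ccl22* (−0.82 to 0.053), and in oligonucleotide against lipofectamine alone for *Ccl2* (−0.46 to 0.35), *Ccl3* (−0.26 to 0.66), *Ccl4* (−0.59 to 0.44), *Ccl9* (−0.42 to 0.33), *Ccl12* (−0.13 to 1.55) and *Ccl17* (−0.72 to 0.62). *Ccl22* in antagomir-21 against scramble kept its direction (1.82 to 3.13). It was not called before adjustment in limma with a prior that follows signal or in the unpaired t test on the compared arrays. That test called 4 members before adjustment between scramble-transfected PMs given miR-21 exosomes and antagomir-21–transfected PMs given GFP exosomes, where limma called 1. *Ccl22* in that comparison stayed at an unadjusted p under 0.05 in every alternative that fitted it and with each array left out. The filter on dim genes dropped *Ccl22*, and the additive model covered only the pooled comparisons. Every other member called before adjustment lost its call in at least 1 alternative or omission. The cause of these changes was not tested. With 2 arrays a group only large differences could be called, and how far a dim signal stands above background is not known.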

Other observations

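Of 11 other CC chemokine genes listed, 8 were measured. *Ccl25*, which draws thymocytes and gut lymphocytes through CCR9, had the highest mean signal at 8.73 ± 1.16, and *Ccl24*, an eosinophil attractant, was at 8.02 ± 1.44, *Ccl28* at 7.98 ± 1.34, *Ccl8* at 7.19 ± 1.15 and *Ccl11* at 6.84 ± 1.75 (SD, n = 12 arrays). In antagomir-21 against scramble, *Ccl11*, which encodes the eosinophil attractant eotaxin-1 and lies between *Ccl7* and *Ccl12*, had a log2 fold change of −2.25 ± 0.99 (SE; limma, adjusted p = 0.955). There 5.16% of all genes had an unadjusted p under 0.05. For oligonucleotide against lipofectamine alone, *Ccl1* was at −1.94 ± 0.68, *Ccl28* at −1.86 ± 0.67 and the lymph node homing receptor *Ccr7* at −2.16 ± 0.81 (SE; limma, each adjusted p = 0.999). In that comparison 4.05% of all genes had an unadjusted p under 0.05. For miR-21 against GFP exosomes, 0 of the 8 were called before adjustment, and their median log2 fold change was 0.32. Among regulators of chemokine genes *Nfkbia*, the NF-κB inhibitor, was at 13.90 ± 0.50, *Jun* at 11.30 ± 0.66 and *Tnfaip3* at 10.36 ± 0.62 (SD, n = 12), and 0 of 14 measured were called before adjustment in the 3 comparisons over pooled groups (limma). In miR-21 against GFP exosomes 11 of these 14 were below 0, with a median of −0.34, beside 51% of all genes and a median of −0.02. In antagomir-21 against scramble 10 of the 14 were above 0, with a median of 0.28, where 50.2% of all genes were below 0. The single contrasts were uneven. For antagomir-21 against scramble, 6 were above 0 and 8 below with GFP exosomes (median −0.20), and 8 and 6 with miR-21 exosomes (median 0.21). For miR-21 against GFP exosomes, 12 were below 0 after antagomir-21 (median −0.60), 9 after scramble (−0.28) and 7 with lipofectamine (−0.02). Of all genes 48.6% to 52.7% were below 0 in these contrasts. The atypical receptor *Ackr4*, which takes up CCL19, CCL21 and CCL25, had a signal of 14.43 ± 0.67 (SD, n = 12), above the median gene on 12 of 12 arrays.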
